A study of Mus musculus with 14 samples.

Results

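Tbx5, Tbx4, Pitx1 and Isl1 are the transcription factors that mark forelimb and hindlimb identity. They were read by Entrez identifier from the counts of all 14 libraries, 4 genes of the 24454 in the table. They were chosen by their known roles and by these same levels, which were already known, so the levels are a description without a test. The libraries hold cells sorted from pooled mouse forelimb buds of embryos that carry Sox9 IRES-EGFP, an allele that reports Sox9 expression, on a mixed Swiss Albino background with both sexes. Lineage-positive (endothelial, blood, epithelial) and dead cells were removed in every sort. S9-JAG1+ LMPs, S9-Pαhi LMPs and S9+Pαhi OCPs (3 libraries each) and S9-SCA-1+ cells (2 libraries, numbered 2 and 3) came from E10.5. S9+PαhiCol2a1+ chondroblasts (3 libraries) came from E11.5, so that stage and population cannot be told apart for them. LMPs are limb bud mesenchymal progenitors and OCPs osteo-chondrogenic progenitors. S9+ cells carry the EGFP and S9- cells lack it, Pαhi marks high surface PDGFRα, and JAG1 and SCA-1 are surface proteins used in the sort.

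Tbx5 is the T-box factor of the forelimb field, where it starts limb bud outgrowth by activating Fgf10, and it is also needed in the heart. Tbx4 is its close paralogue in the hindlimb. Pitx1, a homeobox factor, is expressed in the hindlimb field and not in the early forelimb bud, and it activates Tbx4 and imposes hindlimb form. Isl1, a LIM homeobox factor, acts at the start of hindlimb outgrowth and is also used in the heart and in motor neurons. Hox genes of paralogue groups 4 and 5 activate Tbx5 at the forelimb level, whereas caudal Hoxc genes mark the flank and the hindlimb level, and some of them repress Tbx5.

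RefSeq places the members on the mouse genome GRCm38 (mm10): Tbx5 (Entrez 21388) on chromosome 5 at 119796514-119885220, Tbx4 (21387) on chromosome 11 at 85886367-85916097, both on the plus strand, and Pitx1 (18740) on chromosome 13 at 55825044-55836190 and Isl1 (16392) on chromosome 13 at 116298270-116309688, both on the minus strand. Since 1 position was kept for a read that matched several, paralogues could exchange reads where they share a long exact stretch. The longest runs shared with a near paralogue in the coding transcripts are therefore shown for Pitx1 and Isl1, in capitals within 15 flanking bases a side.
Pitx1 and Pitx3 share 29 bases (chr13:55828453-55828481, exon 2, and chr19:46136996-46137024, exon 3).
Pitx1: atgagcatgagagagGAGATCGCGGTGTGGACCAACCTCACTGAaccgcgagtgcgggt
Pitx3: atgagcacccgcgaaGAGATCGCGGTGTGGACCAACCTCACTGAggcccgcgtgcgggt
Isl1 and Isl2 share 23 bases (chr13:116303236-116303258, exon 4, and chr9:55544147-55544169, exon 4).
Isl1: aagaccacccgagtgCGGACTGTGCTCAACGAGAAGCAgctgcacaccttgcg
Isl2: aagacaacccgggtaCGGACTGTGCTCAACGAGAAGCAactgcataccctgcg
Both runs lie in coding exons. The other longest runs were 23 bases between Tbx5 and Tbx4, 20 between Tbx5 and Tbx2, 19 between Tbx5 and Tbx3, 12 between Tbx4 and Tbx2, and 17 between Tbx4 and Tbx3. None of these runs reached the length of a sequenced read, so an exact read could not fit both genes of a pair. In the GENCODE M21 annotation, 6.21% of the exon bases of Pitx1 overlap exons of an antisense gene (Gm47071) and 4.07% those of a non-coding gene on the same strand (Gm28760). The exons of Tbx5, Tbx4 and Isl1 overlap those of no other gene. Whether counting used strand is not stated, so reads of Pitx1 and of its antisense neighbour cannot be told apart.

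The libraries held between 20316583 and 29162751 counted reads (median 25554497.5). Levels are given in CPM, counts brought to a common library total after scaling by the TMM method. Up to 3 counts, 0.101 to 0.149 CPM depending on the library, cannot be told from absence, and this limit and all intervals cover counting error only. All 4 members passed the filter on low counts. The replicates differed by more than sampling noise in every pair (chi-square per degree of freedom 7.8 to 76.3). The study calls the replicates biological, while the labels name no separate embryos, and p-values measure the spread between these libraries. Markers of limb mesenchyme (Prrx1, Prrx2, Lmx1b, Pdgfra, Msx1, Twist1) were all detected in every library. Their summed level was 1550 to 3190 CPM in 4 of the populations and 421 to 530 CPM in S9-SCA-1+ cells. In S9-SCA-1+ cells 6 of 6 markers of migrating myoblasts (Pax3, Pax7, Lbx1, Met, Myf5, Myod1) were detected in both libraries with a sum of 1500 CPM, against at most 10.7 CPM elsewhere. As in any bulk sample, fewer expressing cells and less RNA per cell cannot be told apart.

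Tbx5, the forelimb factor, was detected in all 14 libraries. In chondroblasts it stood at 364, 424 and 454 CPM in replicates 1 to 3 (mean 414 ± 46, SD, n = 3). In S9-Pαhi LMPs it stood at 306, 315 and 247 CPM (289 ± 37.1, SD, n = 3). In OCPs the values were 215, 240 and 263 CPM (239 ± 24.1, SD, n = 3). The levels of S9-Pαhi LMPs and OCPs overlapped, and their means lay 1.21-fold apart. In S9-JAG1+ LMPs Tbx5 was measured at 181, 193 and 184 CPM (186 ± 6.21, SD, n = 3), below every OCP library. In S9-SCA-1+ cells it was 23.9 and 14.8 CPM (19.3 ± 6.42, SD, n = 2), 9.62-fold below the mean of S9-JAG1+ LMPs. The order from chondroblasts to S9-SCA-1+ cells had no overlap between neighbours other than that of S9-Pαhi LMPs with OCPs. The level in S9-SCA-1+ cells lay beside the low sum of mesenchyme markers and the high sum of myoblast markers given above. What part these take in it was not tested.

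Tbx4, the paralogue of the hindlimb, was also detected in every library of these forelimb buds, in another order. OCPs were highest at 45.2, 38.4 and 42.7 CPM (42.1 ± 3.44, SD, n = 3). Chondroblasts followed at 24.1, 24.4 and 30.8 CPM (26.4 ± 3.81, SD, n = 3). No library of another population reached the lowest OCP library. S9-JAG1+ LMPs had 19.7, 14.9 and 15.4 CPM (16.7 ± 2.61, SD, n = 3). S9-Pαhi LMPs had 10.7, 8.88 and 21.5 CPM (13.7 ± 6.84, SD, n = 3), where replicate 3 was 2.01-fold above the next library and the mean without it was 9.81 CPM. These 2 populations overlapped, and this was the sole overlap between neighbours in the order. S9-SCA-1+ cells were lowest at 4.48 and 5.06 CPM (4.77 ± 0.41, SD, n = 2).

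Levels of different genes can be compared per length, for which RPKM (CPM divided by gene length) were used with the gene lengths of the table. On this scale Tbx4 reached 21.5% ± 3.44 (SD, n = 3) of the Tbx5 level in OCPs and 7.73% ± 0.672 (SD, n = 3) in chondroblasts. In S9-JAG1+ LMPs it reached 10.9% ± 1.99 (SD, n = 3). In S9-Pαhi LMPs it was 4.23%, 3.41% and 10.6% in replicates 1 to 3 (6.06% ± 3.91, SD, n = 3). The percentage was thus higher in each OCP library than in any library of the 2 LMP populations or of chondroblasts. In S9-SCA-1+ cells it was 22.7% and 41.4%, where Tbx5 itself was low, and the lower of these lay within the range of OCPs.

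**Figure D1:**
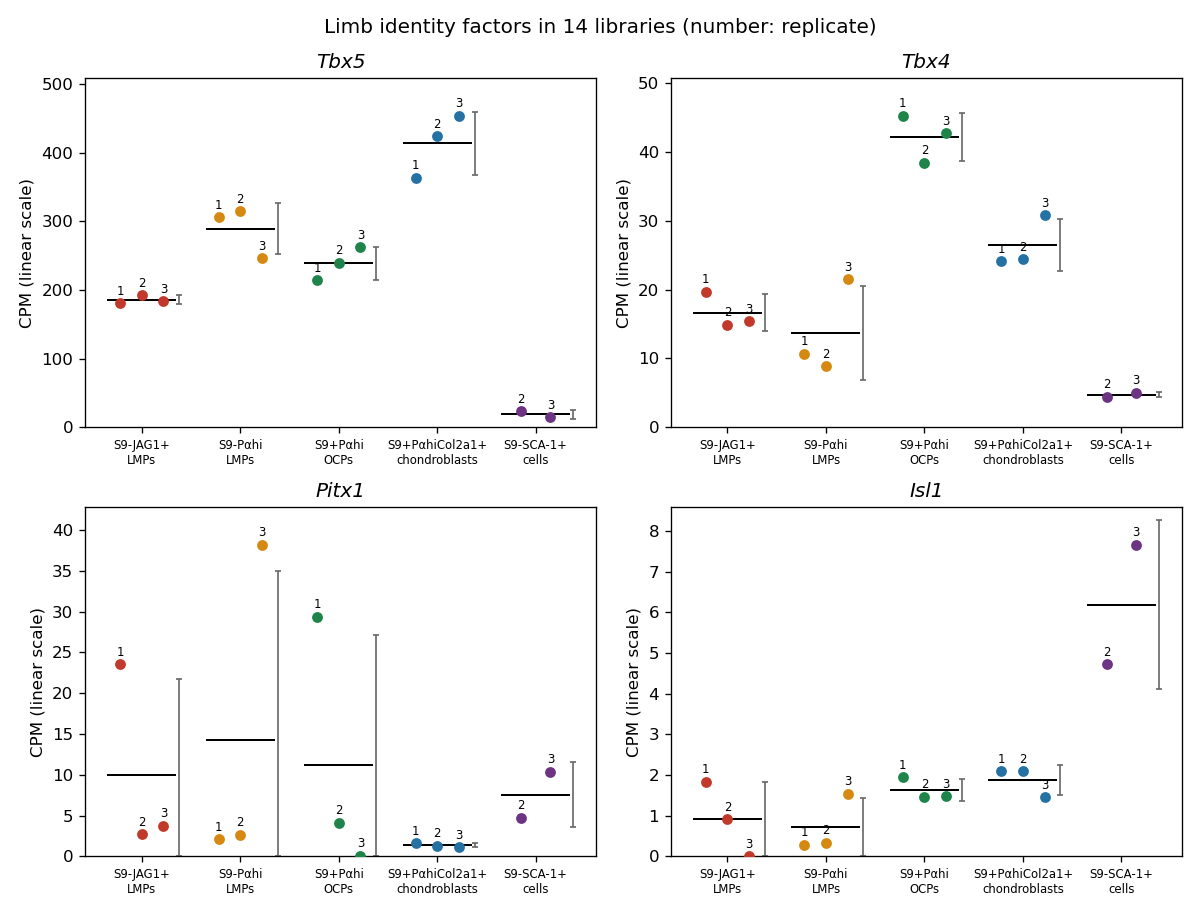
Level of Tbx5, Tbx4, Pitx1 and Isl1 in CPM (linear axes from 0, 1 panel a gene) in the 14 libraries by population; points are libraries with their replicate number, the horizontal line is the mean and the grey bar the SD, drawn down to 0 at most. Tbx5 was lowest in S9-SCA-1+ cells and Tbx4 highest in OCPs, and single libraries at 23.6, 38.2 and 29.4 CPM set the means of Pitx1 in 3 populations.

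**Figure D2:**
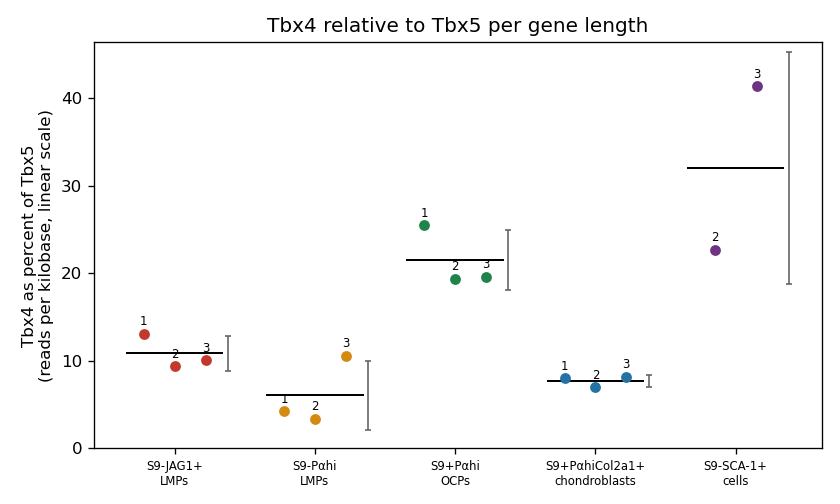
Tbx4 as a percent of Tbx5 in reads per kilobase (linear axis from 0) in each library, by population, with the replicate number, the mean (line) and the SD (grey bar). The 3 OCP libraries lay between 19.4% and 25.5%, above all libraries of both LMP populations and of chondroblasts.

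Pitx1 stood at low levels in most libraries and high in 1 library each of 3 populations. In S9-JAG1+ LMPs it was 23.6 CPM in replicate 1 against 2.72 and 3.77 CPM in replicates 2 and 3 (10 ± 11.8, SD, n = 3). In S9-Pαhi LMPs it was 38.2 CPM in replicate 3 against 2.11 and 2.67 CPM in replicates 1 and 2 (14.3 ± 20.7, SD, n = 3). In OCPs it was 29.4 CPM in replicate 1, 4.14 CPM in replicate 2 and 2 counts in replicate 3, at or under the detection limit (11.2 ± 15.9, SD, n = 3). One library in each of these populations was thus 6.26-, 14.3- and 7.12-fold above the next. Without it the means fell to 3.26 CPM in S9-JAG1+ LMPs, 2.4 CPM in S9-Pαhi LMPs and 2.11 CPM in OCPs. Chondroblasts were even, at 1.61, 1.3 and 1.14 CPM (1.35 ± 0.242, SD, n = 3). S9-SCA-1+ cells had 4.76 and 10.4 CPM (7.58 ± 3.99, SD, n = 2), above all chondroblast libraries, and no other neighbours in the order were apart. For the counting error alone, the 95% exact Poisson interval was 35.5 to 41 CPM for the 766 counts of S9-Pαhi replicate 3, and 2.09 to 3.37 CPM for the 71 counts of replicate 2. Per length, Pitx1 stood at 160%, 236% and 86.6% of Tbx4 in the high libraries of S9-JAG1+ LMPs, S9-Pαhi LMPs and OCPs. In the other libraries of the 3 populations it was 0.225% to 40% of Tbx4, and in S9-SCA-1+ cells 141% and 274%.

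Isl1 was low throughout, with few or no counts in some libraries. S9-SCA-1+ cells had the highest level, 4.72 and 7.66 CPM (6.19 ± 2.08, SD, n = 2), above all other libraries. Chondroblasts had 2.09, 2.09 and 1.45 CPM (1.88 ± 0.366, SD, n = 3). OCPs had 1.95, 1.47 and 1.48 CPM (1.63 ± 0.271, SD, n = 3). In S9-JAG1+ LMPs Isl1 was 1.84, 0.922 and 0 CPM (0.921 ± 0.921, SD, n = 3); the 0 counts of replicate 3 allow up to 3 counts, and without replicate 1 the mean was 0.463 CPM. In S9-Pαhi LMPs it was 0.285, 0.338 and 1.54 CPM (0.722 ± 0.712, SD, n = 3), with 7, 9 and 31 counts. Replicate 3, the library high in Pitx1, was 4.56-fold above the next, and without it the mean was 0.312 CPM. Apart from S9-SCA-1+ cells and chondroblasts, neighbours in the order overlapped. Of the paralogues, Isl2 stayed at or under 0.707 CPM in all libraries, and Pitx3 reached 8.26 and 7.02 CPM in the S9-SCA-1+ libraries but 0.548 CPM at most in the others. Tbx2 and Tbx3, T-box repressors, were highest in S9-Pαhi LMPs, at 191 to 311 and 212 to 284 CPM.

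Within populations, the ranks of the other members were also read in the library highest in Pitx1. In each of the 5 populations the library with the highest Pitx1 had the lowest Tbx5, which lay below the mean of its replicates by 3.81% in S9-JAG1+ LMPs, 20.5% in S9-Pαhi LMPs, 14.6% in OCPs, 17.1% in chondroblasts and 38% in S9-SCA-1+ cells. Tbx4 was highest in the same library in 4 of 5 populations (in chondroblasts it was lowest), and Isl1 in 4 of 5. Hoxc8 and Hoxc9 were highest there in 4 of 5 populations and Hoxc10 and Hoxc11 in 3 of 5. These tallies were made with the levels known and rest on 2 or 3 libraries a population. No share over all genes is given for them, so they are a description and no test. Counting error left some ranks open. The exact Poisson intervals overlapped for Tbx5 in S9-JAG1+ replicates 1 and 3 (176 to 187 and 178 to 189 CPM). They also overlapped for Pitx1 in chondroblast replicates 1 and 2 (1.19 to 2.14 and 0.92 to 1.78 CPM). For Tbx4 they overlapped in OCP replicates 1 and 3 (42.6 to 48 and 40.3 to 45.2 CPM). Tbx4 was likewise open in chondroblast replicates 1 and 2 and in S9-SCA-1+ replicates 3 and 2 (4.26 to 5.96 and 3.74 to 5.32 CPM). For Isl1 they overlapped in OCP replicates 1 and 3 (1.44 to 2.58 and 1.06 to 2.01 CPM). Isl1 was also open in S9-JAG1+ replicates 1 and 2 (1.33 to 2.48 and 0.578 to 1.4 CPM).

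Caudal Hoxc genes were uneven across the same libraries. Hoxc10 was 8.48 CPM in OCP replicate 1 against 1.81 and 0 CPM in replicates 2 and 3. It was 7.92 CPM in S9-Pαhi replicate 3 against 0 and 0.226 CPM in replicates 1 and 2. In S9-JAG1+ LMPs it was 3.9, 0.419 and 4.32 CPM, so that replicate 3, with low Pitx1, was as high as replicate 1. S9-SCA-1+ cells had 3.95 and 6.02 CPM. Chondroblasts had 1 read in 3 libraries. Hoxc11 was 2.54 CPM in S9-Pαhi replicate 3 and 1.05 CPM in OCP replicate 1, against at most 0.143 CPM in their replicates. Hoxc8, which is expressed further forward along the body, was 6.08 CPM in S9-JAG1+ replicate 1 against 0.964 and 1.66 CPM, and at most 2.31 CPM in S9-Pαhi LMPs and OCPs.

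The genes that stood apart in the same libraries were then counted among all 15125 genes tested. A gene was counted where its level was at least 1 CPM and at least 3-fold above every other library of its population. OCP replicate 1 had 6 such genes (0.0397%), S9-Pαhi replicate 3 had 7 (0.0463%) and S9-JAG1+ replicate 1 had 46 (0.304%), while the other 11 libraries had between 0 and 68. The 6 and the 7 genes shared 5, which were Pitx1, Hoxc10, Hoxc11, Lin28a and Nr1h5. Pitx1 and Nr1h5 were in all 3 sets. The 3 libraries were picked as those highest in Pitx1, with its levels known, so the place of Pitx1 in the sets follows from that choice. Lin28a encodes an RNA-binding protein of early embryonic cells, and Nr1h5 a nuclear receptor; both are named after their values were seen. Lin28a was 55.8 CPM in OCP replicate 1 (12 and 15 in the others), 42.6 CPM in S9-Pαhi replicate 3 (8.78 and 6.84) and 34.7 CPM in S9-JAG1+ replicate 1 (14.1 and 14). Nr1h5 was 4.1, 6.77 and 1.97 CPM in the 3 libraries and at 0 counts in the other libraries of their populations. Nr1h5 was also 7.8 CPM in S9-SCA-1+ replicate 2, the one lower in Pitx1, and had 1 count in replicate 3, so it did not follow Pitx1 there. Lin28a was 93.9 and 92.1 CPM in S9-SCA-1+ replicates 2 and 3, above all other libraries and nearly even between these 2. Isl1 was among the 7 genes of S9-Pαhi replicate 3. Sharing between populations was not limited to the libraries high in Pitx1. Ct55 and Slc15a2, also named after their values were seen, stood apart by the same rule in other libraries. They were at 2.71 and 5.14 CPM in OCP replicate 2, 5.15 and 1.77 CPM in S9-Pαhi replicate 2, and 9.51 and 3.96 CPM in S9-JAG1+ replicate 3. Slc15a2 also stood apart in chondroblast replicate 1, at 5.11 CPM.

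**Figure D3:**
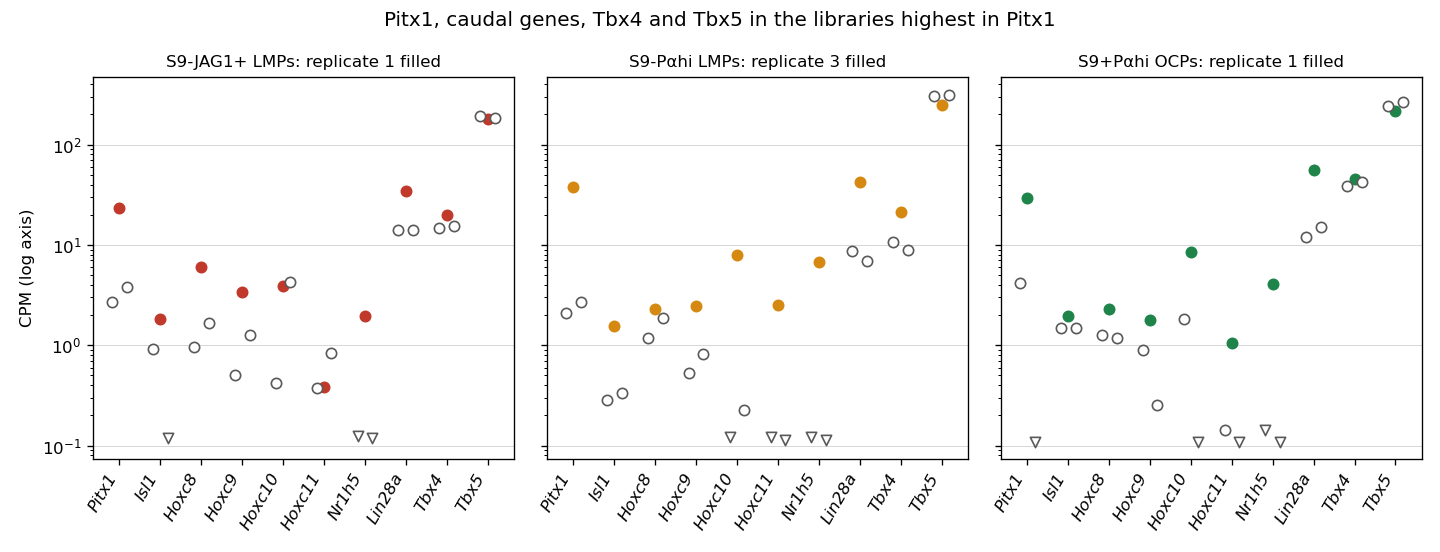
Levels in CPM (log axis) of Pitx1, Isl1, 4 caudal Hoxc genes, Nr1h5, Lin28a, Tbx4 and Tbx5 in 3 populations (1 panel each); the filled point is the library highest in Pitx1, open points are its replicates, and triangles are values under the detection limit, drawn at that limit. The filled points lie above their replicates for Pitx1 (23.6, 38.2 and 29.4 CPM), Isl1, Nr1h5, Lin28a, Tbx4, Hoxc8 and Hoxc9 and below them for Tbx5. Hoxc10 and Hoxc11 are high in S9-Pαhi replicate 3 and OCP replicate 1 and not apart in S9-JAG1+ replicate 1.

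Markers of other tissues were read in the libraries that stood apart. In S9-Pαhi replicate 3 and OCP replicate 1 the summed markers of heart (3.09 and 2.31 CPM over 10 genes) and of flank and body wall lining (201 and 298 CPM over 8 genes) were the lowest of their populations. The flank sums mostly follow Tbx18 (means 168 and 291 CPM in S9-Pαhi LMPs and OCPs) and Osr1 (61.6 and 26.7 CPM). Msln and Upk1b of that list were at 0 in both populations. Hand1 and Gata4 held most of the heart sums. In S9-Pαhi replicate 3 Hand1 was lowest (1.89 CPM) but Gata4 highest (0.897 CPM against 0.773 and 0.414). The tail bud list was the highest of its population in S9-Pαhi replicate 3 (3.84 CPM against 3.17 and 3.35), and the red blood cell list in OCP replicate 1 (47.8 CPM against 7.85 and 33.5). In S9-JAG1+ replicate 1 the sums of the heart, the flank and the ectoderm and ridge lists were the highest of the 3 replicates. The ectoderm and ridge list reached 13.7 CPM (8.55 and 10.3 in the others), led by Krt8 at 6.38 CPM (1.26 and 1.98). The heart list reached 9.42 CPM (1.8 and 2.14 in the others), led by Hand1 at 7.11 CPM, and the flank list 66.5 CPM (40.4 and 42.2), led by Gata6 at 34.9 CPM (10.1 and 10.7). The heart muscle genes Myl7, Tnnt2 and Myh7 were at 0 counts there. Nkx2-5 had 2 counts, under the limit, and the atrial gene Myl4 0.813 CPM. The neuron list summed to 14.3 CPM, the lowest of the 3 replicates (18.3 and 21.4), with Lhx3 and Chat at 0 counts and the motor neuron gene Mnx1 at 3.68 CPM. The 46 genes that stood apart in this library included the mesoderm and heart field factors Tbx20, Gata4 and Gata5 and the ligand Wnt2, named after their values were seen. In S9-JAG1+ replicate 3, where Isl1 was at 0, the tail bud list summed to 51.6 CPM (9.93 and 15.7 in the others), led by T at 23.8 CPM. Hoxc13 and Hoxc12 were 5.31 and 1.39 CPM there and at 0 in the other 2 replicates. In S9-SCA-1+ replicate 3, which had the higher Pitx1 and Isl1 and the lower Tbx5, red blood cell genes summed to 2650 CPM against 96 CPM in replicate 2, led by Hbb-y at 1130 CPM. The part of these tissues in the levels of the members was not tested.

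The genes around the limb identity factors were tested in 5 lists, 41 genes of which 40 passed the filter (Hoxc12 did not). The lists were chosen with earlier results of these data known. The shares over all genes thus stand beside the counts as a description and are no test of the lists. For every population its mean was set against that of the other 4 by edgeR's quasi-likelihood test in 1 model over all 14 libraries. A gene was called at a Benjamini-Hochberg adjusted p, over all 15125 genes, no higher than 0.1 if its log2 fold change was 1.2 or more in size, the values of the study's own limits; the study does not state whether its p was adjusted. The comparisons share libraries. In S9-JAG1+ LMPs 10 of the 40 genes were called higher and 9 lower, where 2.88% and 7.70% of all genes were. In S9-Pαhi LMPs 10 were called higher and none lower (1.53% and 2.31% of all genes). In OCPs 9 were called higher and 3 lower (3.37% and 1.64%). In chondroblasts 3 were called higher and 7 lower (11.0% and 1.71%). In S9-SCA-1+ cells none was called higher and 17 lower (4.46% and 6.80%). These 17 include Prrx1, Prrx2 and Lmx1b, which are also among the mesenchyme markers whose sum was already given as low in these cells. DESeq2's Wald test gave the same counts of 0. At an unadjusted p under 0.05 in edgeR's test, 2 genes were lower in S9-Pαhi LMPs and 5 higher in S9-SCA-1+ cells. The 0 genes called higher in S9-SCA-1+ cells became 1 with the replicate number as a block. They became 2 without OCP replicate 1, and also 2 without S9-Pαhi replicate 3. Without the 3 libraries high in Pitx1, 4 were called higher there and 1 lower in S9-Pαhi LMPs.

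Most Hox genes of groups 4 and 5, activators of Tbx5, were higher in OCPs and lower in S9-JAG1+ LMPs. Of 6 genes, 4 were called higher in OCPs (Hoxb4, Hoxb5, Hoxc4, Hoxc5), 3 in S9-Pαhi LMPs (Hoxb5, Hoxc4, Hoxc5) and 1 in chondroblasts (Hoxc5). In S9-JAG1+ LMPs 4 were called lower (Hoxb4, Hoxb5, Hoxc4, Hoxc5), and in S9-SCA-1+ cells 2 (Hoxc4, Hoxc5). The median log2 fold change of the list was 1.36 in OCPs and -1.55 in S9-JAG1+ LMPs, beside 0.02 and -0.01 over all genes. Hoxc4 was 38, 42.3 and 46.8 CPM in OCPs, above all other libraries (log2 fold change 2.39, SE 0.324, adjusted p = 0.000123). In S9-JAG1+ LMPs it was 5.61, 4.15 and 3.61 CPM (-1.67, SE 0.427, adjusted p = 0.00605), and in S9-SCA-1+ cells 2.38 and 1.67 CPM, under all others. The level of Tbx5 in the libraries of S9-JAG1+ LMPs, given above, was 181 to 193 CPM beside these low Hoxc4 levels. Chondroblast replicate 3 stood apart, with Hoxc4 at 4.24 CPM against 30.9 and 24.2 and Hoxb4 at 0.903 CPM against 17.8 and 14.8, although Tbx5 was highest in that library at 454 CPM. Hoxc5, called higher in chondroblasts, was 3.77, 32.3 and 40.5 CPM in their 3 libraries, in order of size. Hoxa4 and Hoxa5 were called in no comparison, and Hoxa5 ranged from 45.8 to 95.7 CPM within OCPs alone. In S9-Pαhi LMPs the call of Hoxc5 (log2 fold change 1.43, adjusted p = 0.0566) was lost without any 1 of its 3 libraries or without S9-SCA-1+ replicate 2 (adjusted p = 0.106 to 0.24), and that of Hoxc4 without replicate 1 (0.103). In S9-JAG1+ LMPs Hoxc5 was lost without replicate 2 (adjusted p = 0.103) or 3 (0.156) and Hoxb5 without replicate 3 (0.129), and in OCPs Hoxb5 without replicate 3 (0.115).

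Of the 5 caudal genes tested, 3 were called higher in S9-JAG1+ LMPs, namely Hoxc8, Hoxc9 and the antisense RNA Hotair. Both Hoxc8 (log2 fold change 1.76, adjusted p = 0.00476) and Hoxc9 (2.34, adjusted p = 0.00969) lost their call without replicate 1, with 0.63 and 1.40 and adjusted p of 0.226 and 0.146. Hotair lay at 0.0428, 0.0838 and 0.714 CPM there, mostly under the detection limit, and its call (adjusted p = 0.0885) was absent in 11 of 20 refits. In chondroblasts Hoxc9 and Hoxc10 were called lower (adjusted p = 0.000954 and 0.0135), each with 1 read in 3 libraries, so that no fold is given. In S9-SCA-1+ cells Hoxc8 was called lower, at 0.42 and 0.214 CPM (adjusted p = 0.0243), and the call was lost without replicate 3 (adjusted p = 0.206). When the 3 libraries high in Pitx1 were left out, a choice made after the data were seen, Hoxc8 lost its call in S9-JAG1+ LMPs (log2 fold change 0.79, adjusted p = 0.103). In the same fit Hoxc10 and Hoxc11 were called higher in S9-JAG1+ LMPs (adjusted p = 0.0228 and 0.0143) and Hoxc9, Hoxc10 and Hoxc11 in S9-SCA-1+ cells (adjusted p = 0.0792, 0.00111 and 0.0234). Hoxc11 was called lower in S9-Pαhi LMPs in that fit (adjusted p = 0.0742), with 0 and 0.0376 CPM in the 2 libraries left there.

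Genes that act downstream of or beside the limb initiation factors divided the populations. Fgf10, the growth factor that Tbx5 activates, was 92, 92.6 and 103 CPM in S9-JAG1+ LMPs, above all other libraries (log2 fold change 1.47, SE 0.1, adjusted p = 5.93e-08). It was lowest in S9-SCA-1+ cells at 13.9 and 13.8 CPM (-2.02, SE 0.15, adjusted p = 1.4e-07). The zinc finger factors Sall4 and Sall1, which act beside Tbx5, were also called higher in S9-JAG1+ LMPs, Sall1 with 518, 510 and 572 CPM (2.77, SE 0.116, adjusted p = 4.56e-10). Hand2, a posterior factor upstream of Shh, and Etv4, a target of FGF signalling, were called higher there as well, so that 5 of the 12 genes were. The populations highest in Fgf10, Sall1 and Sall4 were thus not those highest in Tbx5. Meis1 and Meis2, factors of the proximal limb bud, were called lower in S9-JAG1+ LMPs and higher in OCPs, where Meis1 was 147, 130 and 121 CPM (2.07, SE 0.298, adjusted p = 0.000199). Prrx1 and Prrx2, homeobox factors of limb mesenchyme, were called higher in S9-Pαhi LMPs, with 1290, 1490 and 1300 CPM of Prrx1 (1.38, SE 0.089, adjusted p = 2.91e-07), together with Meis2. Chondroblasts had lower Sall4, Etv4 and Meis3 and higher Sall1, and OCPs lower Etv4 and Sall1. In S9-SCA-1+ cells 5 of the 12 were called lower, which were Fgf10, Hand2, Prrx1, Prrx2 and Sall1, beside the low Tbx5. The calls of Etv4 and Sall1 in chondroblasts fell under the fold limit without replicate 3 (log2 fold change -1.10 and 1.00), that of Etv4 also on unscaled library totals (-1.15), and that of Meis2 in S9-Pαhi LMPs was lost without replicate 1 (adjusted p = 0.107). Gli3 and Etv5 were called in no comparison.

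Among the genes of retinoic acid and Wnt input, Aldh1a2, which makes retinoic acid, was 72.2, 109 and 115 CPM in chondroblasts and at most 9.15 CPM elsewhere (log2 fold change 5.47, SE 0.256, adjusted p = 1.74e-09). It was called lower in S9-JAG1+ LMPs and in S9-SCA-1+ cells. Rarb, a retinoic acid receptor that is itself a target of retinoic acid, was called higher in OCPs at 35.9, 44.7 and 40 CPM (1.94, SE 0.285, adjusted p = 0.000236) and in S9-Pαhi LMPs. It was called lower in S9-JAG1+ LMPs and S9-SCA-1+ cells. Zbtb16, a zinc finger factor of the proximal limb, showed the same calls in OCPs, S9-Pαhi LMPs and S9-SCA-1+ cells. Tcf7, a nuclear effector of Wnt, was called higher in S9-JAG1+ LMPs at 92, 92.8 and 96.3 CPM (1.27, SE 0.113, adjusted p = 8.25e-07) and lower in OCPs and chondroblasts. Its relative Lef1 was called lower in chondroblasts. Rarg and Wnt2b were called lower in S9-SCA-1+ cells. The calls of Tcf7 in OCPs (-1.10 without OCP replicate 2, -1.19 without S9-Pαhi replicate 3), of Lef1 in chondroblasts (-1.17 without replicate 3, -1.15 on unscaled library totals) and of Zbtb16 in S9-Pαhi LMPs (1.15 without S9-SCA-1+ replicate 3) fell under the fold limit. Rara, Ctnnb1 and Tcf7l1 were called in no comparison.

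Isl1 works with LIM-domain partners, and the related factors Lhx2, Lhx9 and Lmx1b act in limb mesenchyme. Lhx2 was 291, 279 and 427 CPM in S9-Pαhi LMPs (log2 fold change 2.14, SE 0.142, adjusted p = 3.62e-07) and was called higher in S9-JAG1+ LMPs too (1.24), a call that fell under the fold limit without S9-SCA-1+ replicate 3 and on unscaled library totals (1.19). Lhx9 was called higher in S9-Pαhi LMPs. In S9-SCA-1+ cells, where Isl1 was highest, Lhx2, Lhx9, Lmx1b and the adaptor Ldb2 were all called lower, Lhx9 with 56.1 and 38.6 CPM (-2.32, SE 0.149, adjusted p = 3.09e-08). Ldb2 was called higher in OCPs at 73.9, 68.8 and 70.6 CPM (1.46, SE 0.087, adjusted p = 1.01e-07) and lower in S9-JAG1+ LMPs. Ldb1, Ssbp2 and Ssbp3, general cofactors of this complex, were called in no comparison.

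**Figure D4:**
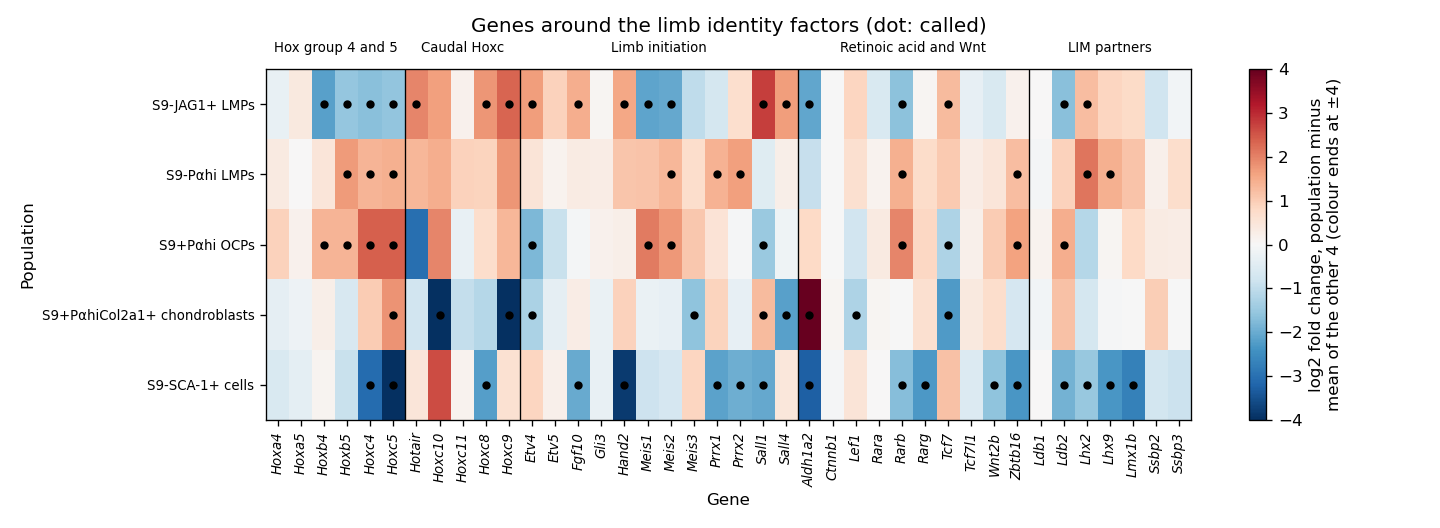
Log2 fold change of 40 genes (columns, in 5 lists) in each population (rows) against the mean of the other 4, as colour from blue (lower) to red (higher), with the scale ending at 4 in both directions; a dot marks a called gene (edgeR quasi-likelihood test). Dots on Hox genes of groups 4 and 5 are blue in S9-JAG1+ LMPs (4 genes) and red in OCPs (4 genes), and all 17 dots of S9-SCA-1+ cells are blue.

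The genes whose levels followed each member most closely were found by Pearson's r of log2 CPM over the 14 libraries among 11885 genes with an average of at least 1 log2 CPM. The libraries share a population in groups of 2 or 3, and S9-SCA-1+ cells lie far from the rest for Tbx5 and Tbx4. For Tbx5 the closest were the calcium channel gene Cacna1g (0.988), the kinesin Kif26b (0.987), the adhesion gene Clmp (0.984), the collagen receptor Ddr2 (0.975) and Cd47 (0.972). All 5 had their lowest mean in S9-SCA-1+ cells, such as 38.6 CPM of Cacna1g against 370 CPM in chondroblasts. For Tbx4 they were Reep5 (0.95), Mctp2 (0.934), 9930014A18Rik (0.923), the kinase Pim2 (0.922) and Lratd2 (0.921), each with its highest mean in OCPs. For Pitx1 no gene went past 0.834 (Trnau1ap), followed by Txndc9 (0.831), Nanp (0.825) and Med21 (0.808). The population means of these 4 genes lay close together, as with 25.3 to 30.2 CPM of Trnau1ap. For Isl1 the closest were Lgi2 (0.868), the embryonic globins Hba-x (0.843) and Hbb-y (0.827), Daam1 (0.832) and Pfkm (0.824), all highest in S9-SCA-1+ cells. Hba-x averaged 374 CPM there, and the red blood cell genes of replicate 3, given above, move with Isl1 in these 2 libraries.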

How the data were processed

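Counts of reads per gene of 14 libraries from sorted mouse forelimb bud cells were used. According to the authors' methods, single-end reads of poly(A)+ RNA were aligned to mm10 with STAR, keeping 1 position for reads that match several, and counted per RefSeq gene with QuasR; the deposited counts are whole numbers without normalization. Symbols came from RefSeq of GRCm38; 24374 of 24454 identifiers matched, and the other 80 held 0.358% of counts. The filter filterByExpr of edgeR 4.0.16 (R 4.3.3) left 15125 genes, totals were scaled by TMM (factors 0.957 to 1.06), and 1 model with population means covered all libraries (biological coefficient of variation 13.4%). Quasi-likelihood tests compared each population with the mean of the other 4. Standard errors are the log2 fold change divided by the square root of F. Correlations used log2 CPM with a prior count of 2. Alternatives were other scalings, filters and limits, DESeq2 1.42.0, replicate numbers as a block and each library left out in turn. The procedure was tested on simulated data. Named were the members, the called genes of the lists, the 5 closest genes of each member and the leading marker in a library that stood apart; others are said to be named after their values were seen, and some items are not reported here. The members and lists were chosen with earlier results of these data known. Shared runs were searched in GENCODE M21 transcripts; figures were drawn with matplotlib 3.10.9.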

Additional observations from a re-analysis of the deposited data

How the results depend on the processing

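The levels of the 4 members moved by less than the spread between replicates under both other scalings. Leaving out 1 library moved the mean of Pitx1 to between 3.26 and 13.8 CPM in S9-JAG1+ LMPs, 2.4 and 20.4 CPM in S9-Pαhi LMPs and 2.11 and 16.8 CPM in OCPs, and that of Isl1 to between 0.463 and 1.39 CPM in S9-JAG1+ LMPs and 0.312 and 0.943 CPM in S9-Pαhi LMPs. The counts of called genes stayed within 1.5 times the reported count under other scalings and filters, DESeq2's Wald test, an adjusted p of at most 0.05 and without the 3 libraries high in Pitx1. With no limit on the fold change 31 genes were called in S9-JAG1+ LMPs (16 higher, 15 lower), 24 in S9-Pαhi LMPs (23 and 1), 27 in OCPs (21 and 6), 25 in chondroblasts (12 and 13) and 26 in S9-SCA-1+ cells (4 and 22). Leaving out 1 library at a time gave 16 to 19, 7 to 12, 11 to 13, 8 to 11 and 16 to 19 calls, in the same order. Of 68 calls, 52 were kept in all 20 refits and none turned its direction.

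With the replicate number as a block the counts were 19, 10, 12, 11 and 18. Of the 18 in S9-SCA-1+ cells, 1 was higher and 17 lower. Libraries with the same number showed little pairing: of 26 pairs, 3 had deviations correlated above 0.1 (median r -0.011, range -0.163 to 0.234). Libraries high in Pitx1 with unlike numbers reached 0.357 (OCP replicate 1 with S9-Pαhi replicate 3) and 0.205 (S9-Pαhi replicate 3 with S9-JAG1+ replicate 1). OCP replicate 1 and S9-JAG1+ replicate 1, of the same number, were at 0.226. Another unlike pair, S9-Pαhi replicate 1 with S9-JAG1+ replicate 2, was at 0.206. Whether libraries with unlike numbers share embryos was not tested.

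The genes closest to a member depended on the measure. Of the 5 closest, Spearman's rho kept 0 for Tbx5, 3 for Tbx4, 2 for Pitx1 and 0 for Isl1, and correlation over the 5 population means kept 2, 1, 0 and 0; the cause was not tested. Depth limits Isl1 and the caudal Hoxc genes, many of which lie within a few counts of the detection limit.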
